A study of Homo sapiens with 24 samples.

Results

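The genes of the nuclear pore and of transport through it were followed in D425 medulloblastoma cells after a hairpin against OTX2 was induced. Members were the probe sets with 1 gene symbol that named a numbered nucleoporin (NUP), a karyopherin (KPNA, KPNB), an importin (IPO), an exportin (XPO), a transportin (TNPO), RAN, a Ran-binding protein (RANBP), RANGAP1, RCC1 or CSE1L. This gave 177 of the 54675 probe sets on the array, for 63 of the 19775 genes named by 1 symbol. Of these, 157 probe sets and 58 genes passed a filter on dim signal and were tested, beside 13903 genes in all. The 5 members that did not pass were IPO9-AS1, NUP210L, NUP50-DT, NUP62CL and RANBP3L. Of the tested names, IPO5P1 and NUP210P1 are pseudogenes and NUP133-DT is a divergent transcript, so they encode no carrier or pore protein.

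Nuclear pores are large channels in the nuclear envelope, built from nucleoporins in stacked rings and lined with flexible phenylalanine-glycine repeats that let carriers through. Importins bind cargo in the cytoplasm and release it in the nucleus when they meet RAN bound to GTP, and exportins bind cargo together with that form of RAN and release it outside. RCC1 on chromatin loads RAN with GTP and RANGAP1 at the outer face of the pore triggers its hydrolysis, which keeps these forms apart. Dividing cells must also rebuild the envelope and its pores after each mitosis, and importins and RAN take part in spindle assembly.

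D425 is an established human medulloblastoma line. The shOTX2 arm carried a doxycycline-inducible short hairpin RNA against OTX2, a homeobox transcription factor, and was sampled at 0, 8, 16, 24, 48 and 96 h in 3 time courses that the labels call independent, which gave 18 arrays. The control arm was 1 course of D425 control cells at the same times, with 1 array per time, and what its cells carry is not given. Both arms received doxycycline and grew in fetal calf serum. The p-values therefore measure the spread between courses of 1 line, and the control adds no spread of its own. Where the hairpin binds OTX2 is not given either.

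Values are microarray signals without read depth, and array medians ranged from 16.3 to 20.6. OTX2 itself read 4417.4, 4839.4 and 4719.5 at 0 h and 3841.5, 4398.3 and 4324.3 at 96 h in courses 1, 2 and 3, a log2 change of -0.15 that was not called by limma (adjusted p = 0.172), so the arrays are named by their labels. All 4 genes fixed as D425 markers and all 8 neuronal markers passed the filter. The summed signal of the D425 markers lay between 9598 and 10678 at 0 h and between 7739 and 8261 at 96 h, without overlap. In the control, whose ranges here cover all its times, it lay between 10974 and 12884. The summed signal of the neuronal markers lay between 4012 and 5177 at 0 h and between 6614 and 7258 at 96 h in the shOTX2 arm, and between 3662 and 4626 in the control. That of the fibroblast markers, of which 4 of 5 passed, lay between 56.1 and 83.2 and between 485 and 989. In the control it lay between 153 and 355 over all times, with 153 at 0 h and 157 at 96 h. Of the astrocyte markers 1 of 4 passed, of the immune markers 1 of 5 and of the endothelial markers 1 of 4, and GFAP, PTPRC and VWF did not. Course 1 and the control course stood apart from courses 2 and 3 in the ratio of the 3' to the 5' actin probe sets, by which RNA or labelling quality is commonly judged. It was 1.31 to 1.51 in course 1 and 1.3 to 1.55 in the control, against 1.82 to 2.36 in course 2 and 1.87 to 2.02 in course 3. The part of these differences in the results was not tested.

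By 96 h many transport genes had fallen and few had risen. Calls are limma's, at an adjusted p (Benjamini-Hochberg, across the 13903 tested genes) under 0.05. At 96 h 31 of 58 members were lower and 4 higher than at 0 h, while among all genes 22.5% were called lower and 21.1% higher. The median change over the members was -0.53 on the log2(signal + 16) scale, against -0.00 over all genes. It was -0.49, -0.65 and -0.41 in courses 1, 2 and 3 taken singly and -0.07 in the control. All 35 called members had the same sign in all 3 courses, as had 48 of all 58. The calls were made from these same courses, so the shared sign is no separate support. At least 2-fold changes on the log2 scale were called in 11 members, beside 16% of all genes. In bulk RNA, fewer cells of a type and less RNA per cell cannot be told apart. With arrays centred on their medians, the change at 96 h shifted by -0.118 for the median gene. In that fit 35 members were lower and 4 higher, beside 43.8% of all genes called either way. A fit with the time course as a block called 37 lower and 5 higher, beside 27.8% and 25.9% of all genes. Without course 1 the counts were 34 lower and 4 higher, beside 44.4% of all genes called either way. Without course 2 they were 24 and 4, beside 30.3%, and without course 3 they were 25 and 4, beside 33.4%. With the mean of a gene's probe sets in place of the brightest they were 29 and 5, beside 42.8%.

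The falls appeared between 24 and 48 h. At 8 h no member was called by limma and none had an unadjusted p under 0.05, beside 0% of all genes called and 3.3% with such a p. At 16 h none was called, beside 1.02% of all genes, and 4 members (6.9%) had an unadjusted p under 0.05, beside 11.2% of all genes. With the block, RANBP1 and KPNA3 were called lower at 16 h, beside 2.52% of all genes. At 24 h KPNA3, NUP93 and NUP153 were lower and none was higher, beside 2.7% and 3.45% of all genes. The block called 7 lower and 1 higher at 24 h, beside 7.47% and 7.84% of all genes. At 48 h 29 members were lower and 4 higher, beside 17% and 16.3% of all genes. Of the 29, 28 were also lower at 96 h, KPNA1 being the exception, and all 4 higher genes were higher at both times. Without course 2 the 48 h count was 17 lower and 2 higher, beside 19.2% of all genes called either way. Without course 3 it was 17 lower and 3 higher, beside 21.5%. The members' median ran from -0.03 at 8 h through -0.08, -0.13 and -0.42 to -0.53 at 96 h, and in the control from -0.06 through -0.09, -0.10 and -0.03 to -0.07.

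**Figure D1:**
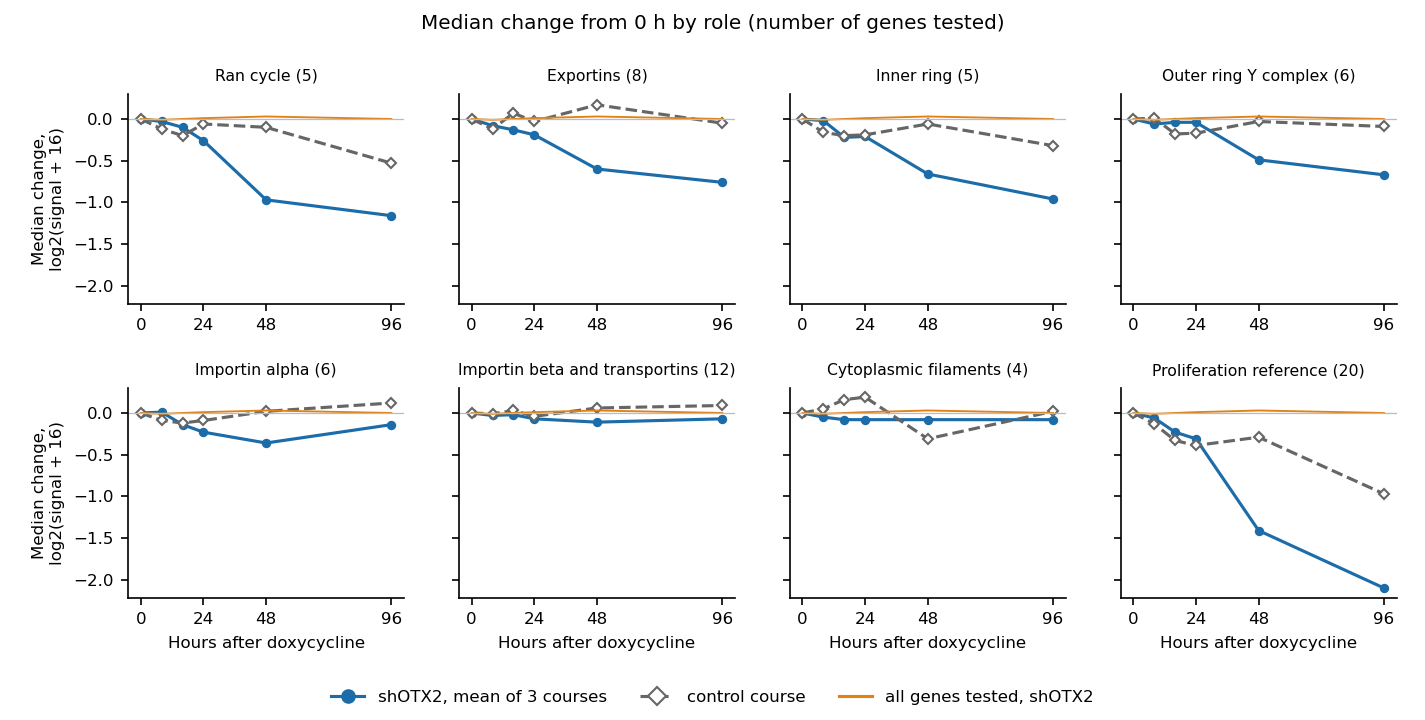
Median change from 0 h on the log2(signal + 16) scale against hours after doxycycline, by role (number of genes tested in brackets), for the mean of 3 shOTX2 courses (filled points), the control course (open points) and all genes tested (line without points). The Ran cycle, exportins and both rings part from the control between 24 and 48 h, and the proliferation genes shown for reference reach -2.10 in the shOTX2 arm and -0.97 in the control.

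From 48 to 96 h few members changed further. IPO5, NUP37, RAN and XPO4 fell and RANBP6 rose, 4 and 1 of 58 beside 6.46% and 5.36% of all genes. The block called 6 lower and 7 higher, beside 13.5% and 10.8% of all genes. IPO5, which carries ribosomal proteins and histones, fell after 48 h and was not called before: it went from 1453 ± 23.7 (SD, n = 3) through 1374 ± 38.3 at 48 h to 945 ± 36.1 at 96 h. The change to 48 h was -0.08 (adjusted p = 0.489) and the change from 48 to 96 h was -0.53 (SE 0.08, adjusted p = 0.000405). IPO7, another carrier of ribosomal proteins, had -0.06 at 48 h and -0.42 at 96 h (adjusted p = 0.00915), and its step from 48 to 96 h of -0.35 had an adjusted p of 0.0691, or 0.000212 with the block. These genes were chosen for this description after their values were seen.

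The stretch before the transcription start is given for 5 members called at 96 h, chosen in part by the motifs it holds. RefSeq promoter windows on GRCh38.p14 were at hand for 55 of the 63 genes, 69 windows in all, and the 250 bases before each start were searched on both strands. The motifs were the OTX site GGATTA, the E-box CACGTG bound by MYC and related factors, the CHR element TTTGAA and the CCAAT box CCAAT, both common before genes of the late cell cycle, and the E2F sites. These were TTTGGCG and TTTCCCG, as well as TTTGCCG with its relative TTTCGCG. No motif contains another. Capitals mark the motifs found, and sequences run 5' to 3' along the gene's strand. KPNA2 (chr17:68035485-68035734, plus strand) holds a CHR element that starts 99 bases before the start, CCAAT boxes at 89 and 58 and an E2F site at 37. NUP35 (chr2:183124193-183124442, plus strand) holds a CHR element at 35 bases and a CCAAT box at 24. NUP188 (chr9:128947449-128947698, plus strand) holds E-boxes at 77 and 30 bases, and IPO4 (chr14:24188817-24189066, minus strand) an E-box at 29. RANBP10 (chr16:67806561-67806810, minus strand), which rose while the others fell, holds a CCAAT box at 47. Of the called members with a single window, NUP35 and KPNA2 were the lowest with a CHR element. NUP188 and IPO4 were the lowest with an E-box, and RANBP10 was the highest, taken whatever its motifs. The CHR elements and E-boxes of these fallers thus follow from the choice. NUP85, which fell more than they did, held none of the motifs in its window.
KPNA2: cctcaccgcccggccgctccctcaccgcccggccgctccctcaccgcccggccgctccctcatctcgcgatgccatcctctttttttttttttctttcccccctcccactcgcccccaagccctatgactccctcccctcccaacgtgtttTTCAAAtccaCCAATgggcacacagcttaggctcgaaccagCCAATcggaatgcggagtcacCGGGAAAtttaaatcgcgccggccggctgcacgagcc
NUP35: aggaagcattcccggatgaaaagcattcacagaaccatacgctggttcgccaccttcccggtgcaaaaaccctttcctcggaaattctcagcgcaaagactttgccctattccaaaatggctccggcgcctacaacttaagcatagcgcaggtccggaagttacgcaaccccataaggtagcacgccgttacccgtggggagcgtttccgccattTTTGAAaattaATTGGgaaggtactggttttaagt
NUP188: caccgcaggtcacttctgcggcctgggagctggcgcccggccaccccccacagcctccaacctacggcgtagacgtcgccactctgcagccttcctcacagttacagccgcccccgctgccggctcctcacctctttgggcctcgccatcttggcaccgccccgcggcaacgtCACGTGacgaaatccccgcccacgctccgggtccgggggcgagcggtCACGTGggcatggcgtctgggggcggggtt
IPO4: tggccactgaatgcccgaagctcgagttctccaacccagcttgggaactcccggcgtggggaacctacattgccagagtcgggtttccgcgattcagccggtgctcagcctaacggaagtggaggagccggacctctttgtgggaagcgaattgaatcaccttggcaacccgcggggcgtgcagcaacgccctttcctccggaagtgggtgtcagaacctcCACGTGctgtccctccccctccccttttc
RANBP10: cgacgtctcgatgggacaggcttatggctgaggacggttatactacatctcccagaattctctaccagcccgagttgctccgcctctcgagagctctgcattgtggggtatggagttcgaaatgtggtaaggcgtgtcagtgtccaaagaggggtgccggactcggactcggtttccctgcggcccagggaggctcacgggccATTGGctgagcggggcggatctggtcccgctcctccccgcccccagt

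The motifs were shared unevenly among the members. The E-box was in 8 of the 35 windows (22.9%) of genes called lower at 96 h, namely those of RCC1, XPO1, RAN, KPNA3, IPO4, IPO7, NUP188 and NUP50. It was in 3.23% of the 31 windows of members not called or not tested, where TNPO2 alone held it, and in 6.34% of the 35116 windows in the table. Of the genes with an E-box, RCC1, IPO4, IPO7 and NUP188 lost their call without course 2 and also without course 3. The contrast in E-box shares therefore depends on which courses enter, and the shares were not recomputed for those fits. The CHR element was in 28.6% of the windows of genes called lower, in those of KPNA2, IPO7, RANGAP1, NUP35, NUP37, NUP93, NUP98, NUP153 and NUP205. It was in 6.45% of the windows of members not called or not tested and in 13.3% of all windows. The CCAAT box was in 45.7% and 38.7% of these windows and in 32% of all. The E2F sites were in 8.57% and 22.6%, and in 7.33% of all. The OTX site was in 1 window of a gene called lower, that of NUP205, in 1 of a member not called, that of NUP214, and in 5.62% of all windows. A match describes letters in the window and not a bound site, and several genes have more than 1 window.

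Of the 5 tested genes of the Ran cycle 4 fell at 96 h, and the median was -1.16. With the mean of a gene's probe sets the median was -0.80. RCC1, the exchange factor that loads RAN with GTP, read 1101.9, 448.3 and 479.7 at 0 h in courses 1, 2 and 3 and 325.8, 118.9 and 159.2 at 96 h. Each course was lower at 96 h than at its own start, course 1 was high throughout, and no 0 h value lay below any 96 h value. The mean at 96 h was 29.8% of that at 0 h, a log2 change of -1.66 (SE 0.56, adjusted p = 0.0227), or an adjusted p of 5.17e-11 with the course as a block. Without course 2 the adjusted p was 0.101 and without course 3 it was 0.142. The control, which read 1042.8 at 0 h and 987.3 at 96 h, was as high as course 1 at 0 h and had no such change. Both these courses have the lower actin ratio, whose part in the level was not tested. RANGAP1, the GTPase-activating protein, read 571.8, 270.2 and 300.8 at 0 h and 141.5, 106.2 and 115.3 at 96 h, with the same split between course 1 and the others at the start and no overlap between the times. The change was -1.47 (SE 0.35, adjusted p = 0.00225), and all 3 of its probe sets were called lower. The control read 505.3 and 345.2.

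RANBP1, which helps RANGAP1 to take export complexes apart, read 2953.6, 3101.6 and 2611.8 at 0 h and 1168.2, 1298.1 and 1388.7 at 96 h. The times did not overlap, and the courses lay close together. The change was -1.16 (SE 0.099, adjusted p = 3.84e-08), with 2 of 3 probe sets called lower. The control went from 2982.4 to 2047.8, lower than at its start but above every shOTX2 array at 96 h. RAN, the GTPase itself, read 5071.8, 5738.8 and 5095.6 at 0 h and 3053.2, 3308.3 and 3700.4 at 96 h, again without overlap. This was 63.3% of the 0 h mean, a log2 change of -0.66 (SE 0.081, adjusted p = 2.88e-06). The control went from 4535.7 to 3607.9, within the range of the shOTX2 arrays at 96 h, and the changes of the arms were not called different (-0.33, adjusted p = 0.209). The other probe set of RAN, at a mean signal of 734, had a change of -0.02 (adjusted p = 0.907), so the fall rests on 1 of 2 probe sets. RANBP3, a cofactor of XPO1, had 108 ± 49.4 (SD, n = 3) at 0 h and 108 ± 22 at 96 h, and its courses differed in sign.

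**Figure D2:**
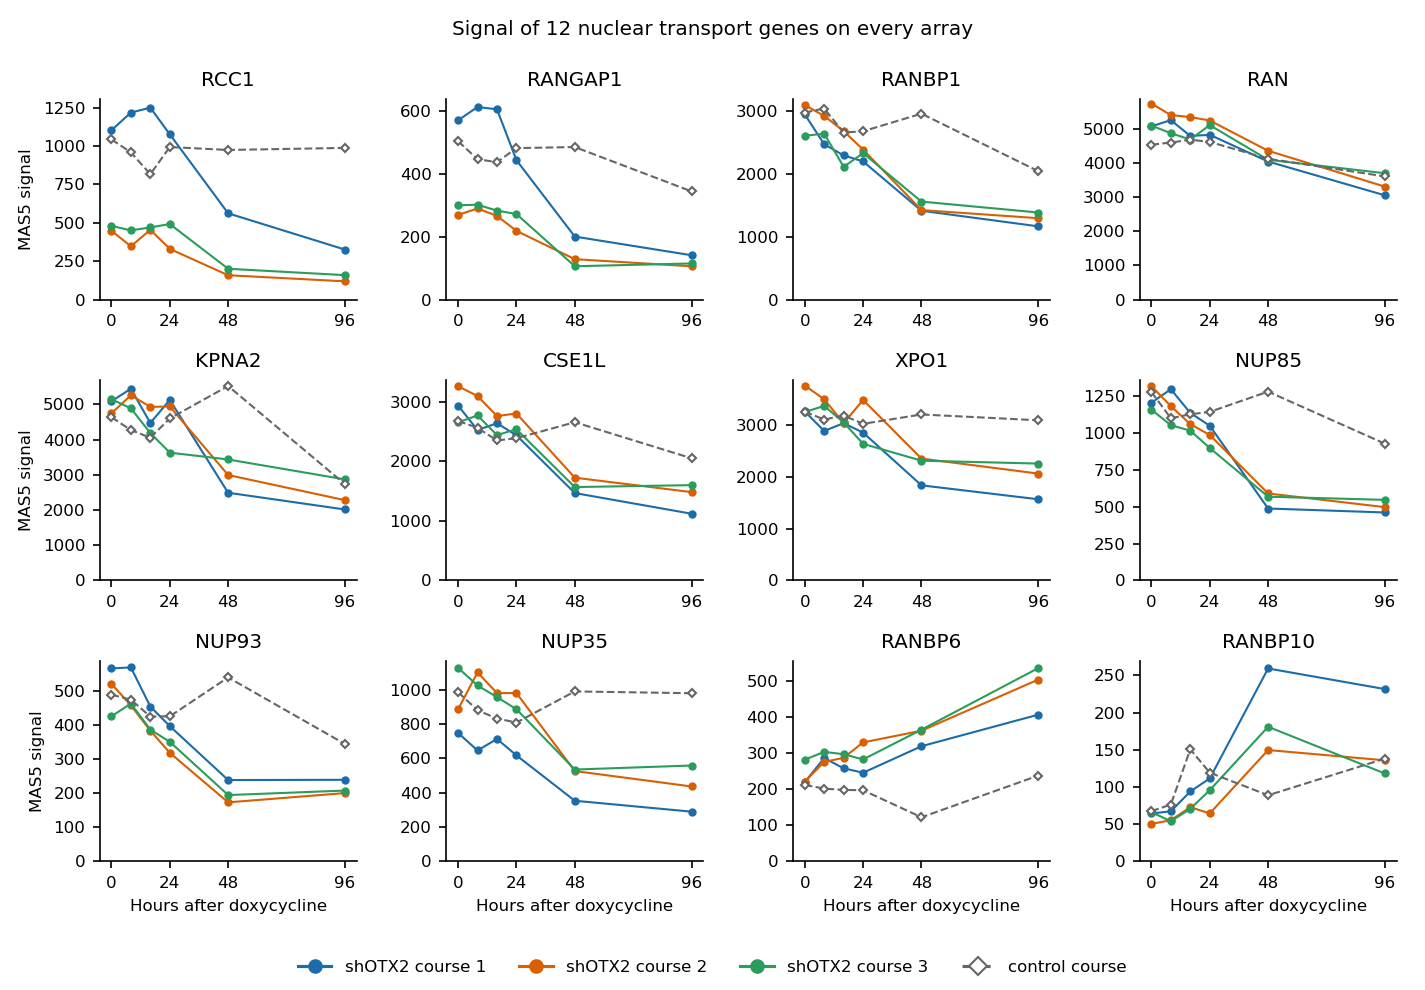
MAS5 signal (linear axes from 0) against hours after doxycycline for 12 transport genes, with 1 point per array: 3 shOTX2 courses (filled, solid lines) and the control course (open, dashed). RCC1 starts at 1101.9 in course 1 and at 448.3 and 479.7 in the others, KPNA2 in the control reads 2738.4 at 96 h within the shOTX2 range, and RANBP6 and RANBP10 are the only genes shown whose shOTX2 signal is higher at 96 h than at 0 h.

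The importin alpha genes, which link cargo with a classical localisation signal to KPNB1, did not move as a block: 2 of 6 fell, none rose, and the median was -0.14. KPNA2, known for its high level in dividing cells, read 5092.7, 4747.1 and 5149.4 at 0 h and 2016.8, 2282.2 and 2871.6 at 96 h. The times did not overlap, and course 3 was the highest at 96 h. The change was -1.07 (SE 0.14, adjusted p = 5.29e-06), and -0.52 (adjusted p = 0.00369) on its other probe set. In the control KPNA2 was at 4637.6 at 0 h, at 5525.1 after 48 h and at 2738.4 after 96 h, so its 96 h value lay inside the shOTX2 range. At 96 h the arms differed by -0.32 (SE 0.28, adjusted p = 0.543).

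KPNA3 read 761.2, 797.8 and 653.6 at 0 h and 543.2, 532.2 and 596.7 already at 24 h, when every shOTX2 array was below every 0 h array. At 96 h it read 451.3, 468.3 and 500.7, a change of -0.62 (SE 0.096, adjusted p = 3.77e-05), while the control went from 753.5 to 917.6. The difference between the arms was -0.90 (SE 0.19, adjusted p = 0.0041). KPNA1 was lower at 48 h (-0.56, adjusted p = 0.00128), with 220.3, 210.1 and 239.9 against 313.8, 381.5 and 318.5 at 0 h. At 96 h it read 232.1, 305.4 and 290.7, higher than at 48 h in every course, and the change of -0.28 was not called (adjusted p = 0.0664), but was with the block (adjusted p = 0.0198) and with arrays centred on the median (adjusted p = 0.0141). A dimmer probe set of KPNA1 was called higher (0.62, adjusted p = 0.015) while its other 5 had negative values that were not called.

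The other 3 importin alpha genes were not called at 96 h. KPNA4 read 868.6, 752.4 and 977.3 at 0 h and 968.3, 966.4 and 1004.7 at 96 h, a change of 0.18 (SE 0.13, adjusted p = 0.277) with the times overlapping. A dimmer probe set of KPNA4 was called higher (0.91, adjusted p = 0.00377). KPNA5 read 256.0, 477.2 and 446.1 and then 373.3, 543.4 and 458.0, with course 1 below the others at both times and the times overlapping. The change was 0.25 (adjusted p = 0.455, or 0.033 in the blocked fit), and a dimmer probe set was called higher (0.41, adjusted p = 0.0197). KPNA6 read 150.1, 250.8 and 226.6 and then 168.7, 238.9 and 216.3, a change of 0.01 (SE 0.29) whose sign turned to -0.11 with arrays centred on the median, to -0.02 with quantile normalization and to -0.06 without course 1.

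**Figure D3:**
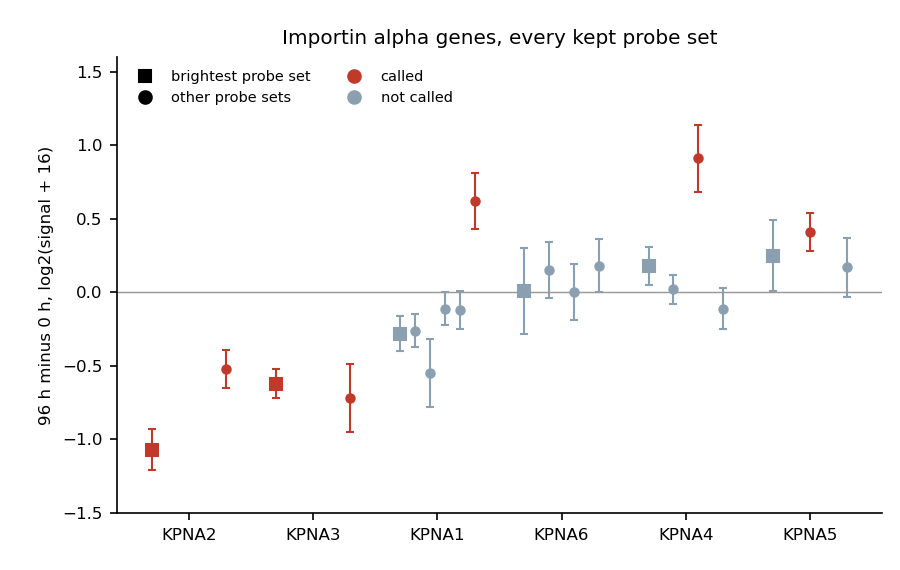
Change from 0 h to 96 h on the log2(signal + 16) scale, with standard errors as bars, for every probe set of the importin alpha genes that passed the filter (squares, the brightest of a gene; circles, the others). Both probe sets of KPNA2 and KPNA3 were called lower, and single dimmer probe sets of KPNA1, KPNA4 and KPNA5 were called higher.

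Of the 12 tested genes of the importin beta family and the transportins, 4 fell, 1 rose, and the median was -0.07. IPO5 alone of the 4 was also called both without course 2 and without course 3. KPNB1, the partner of the importin alphas, read 2135.2, 3388.3 and 3056.3 at 0 h and 1664.1, 1949.0 and 1967.7 at 96 h. Course 1 was the lowest at both times, and the times did not overlap. The change was -0.59 (SE 0.18, adjusted p = 0.0107). It had an adjusted p of 0.103 without course 2 and of 0.127 without course 3, the control read 1959.2 and 1633.1, and 2 of its 6 probe sets were called lower, over a range from -0.72 to -0.07. IPO4, an importin of histones, fell from 288 ± 75.2 (SD, n = 3) to 158 ± 44.3 (-0.81, adjusted p = 0.0129) and IPO7 from 2884 ± 429 to 2146 ± 232. IPO4 had an adjusted p of 0.104 without course 2 and 0.0866 without course 3, and IPO7 of 0.132 and 0.0661, and of 0.0913 with quantile normalization.

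The 7 that were not called were transportins and importins with values on both sides of 0. TNPO1, which carries RNA-binding proteins such as hnRNP A proteins, had 3987 ± 758 (SD, n = 3) at 0 h and 4416 ± 464 at 96 h, a change of 0.16 (adjusted p = 0.45), although 3 of its 9 probe sets were called higher, as was their mean (0.41, adjusted p = 0.0128). TNPO2, its close relative, had 0.11, TNPO3, the importin of SR splicing factors, -0.26, IPO8 0.08, IPO9 0.02 and IPO13 0.31, none of them called. TNPO3 was called lower with the block (adjusted p = 0.00459), with arrays centred on the median (0.0447) and without course 1 (0.0468). With arrays centred on the median the signs of TNPO2, IPO8 and IPO9 turned, to -0.01, -0.03 and -0.10. IPO11 was near the dimmest signals on its only probe set of 1 symbol, 7.87 ± 5 at 0 h. RANBP6, a close relative of IPO5, rose. It read 219.3, 220.8 and 281.8 at 0 h and 406.3, 503.5 and 535.3 at 96 h, without overlap, a change of 0.96 (SE 0.13, adjusted p = 1.26e-05) to 200% of the 0 h mean. The control went from 211.7 at its start through 122.0 at 48 h to 237.4 at the end.

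Of the 8 exportins 7 fell, and their median was -0.76. CSE1L, which returns importin alpha to the cytoplasm, read 2936.8, 3260.9 and 2653.8 at 0 h and 1120.4, 1483.2 and 1600.3 at 96 h. The times did not overlap, and the 48 h arrays lay between 1467.3 and 1725.2. The change was -1.08 (SE 0.12, adjusted p = 9.49e-07), all 4 of its probe sets were called lower, and the control went from 2679.2 to 2051.6. XPO1, the general exporter of proteins with a leucine-rich export signal, read 3269.6, 3768.6 and 3255.9 at 0 h and 1569.8, 2066.3 and 2259.9 at 96 h, while the control read 3264.0 and 3096.9. No shOTX2 array at 96 h reached the lowest array at 0 h. The change was -0.81 (SE 0.13, adjusted p = 6.69e-05), but the mean over its 3 probe sets was not called (adjusted p = 0.0757), since the dimmer ones had -0.39 and 0.07.

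The exporters with narrower cargo fell as well. XPO4 read 345.4, 355.3 and 338.0 at 0 h, 299.4, 278.6 and 207.8 at 48 h and 175.1, 189.1 and 182.6 at 96 h. It fell in both steps without overlap between the times, by 0.87 in all on the log2 scale (SE 0.12, adjusted p = 1.57e-05), and the control read 329.1 at 0 h and 321.2 at 96 h. XPO5, the exporter of microRNA precursors, read 554.2, 655.2 and 444.1 and then 318.5, 337.1 and 327.0, with a wide start and a narrow end that did not overlap. Its change was -0.71 (SE 0.13, adjusted p = 0.000189), and the control went from 525.1 to 583.1. XPOT, the exporter of tRNA, fell by 0.49 (adjusted p = 0.00204), XPO6, the exporter of actin, by 0.56 (adjusted p = 0.014, or 0.226 without course 2) and XPO7 by 0.87 (adjusted p = 3.58e-07). The third probe set of XPO7 had 0.58 and was not called. RANBP17, a relative of XPO7, had -0.18 (adjusted p = 0.44), and its courses differed in sign.

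Among the nucleoporins 14 of 22 fell and none rose, with a median of -0.61. All 5 tested genes of the inner ring, which anchors the pore to the membrane and holds the central channel, were lower at 96 h, with a median of -0.96. NUP93, its linker, had 504 ± 71.7 (SD, n = 3) at 0 h, with 565.5 and 520.3 in courses 1 and 2 and course 3 the lowest, and read 396.3, 318.1 and 350.4 at 24 h and 238.9, 200.0 and 207.4 at 96 h. Every shOTX2 array was below every 0 h array from 24 h on. The change was -0.48 at 24 h (adjusted p = 0.0496) and -1.16 at 96 h (SE 0.14, adjusted p = 2.37e-06), and the control went from 488.5 to 344.0. NUP35, which binds membrane, read 747.3, 885.1 and 1126.4 at 0 h and 289.1, 435.8 and 557.9 at 96 h, with the order of the courses kept and no overlap. Its change was -1.10 (SE 0.25, adjusted p = 0.00141), and the control read 985.0 and 978.8. NUP155 read 189.5, 294.8 and 193.3 and then 101.1, 100.6 and 118.0, without overlap, a change of -0.96 (SE 0.16, adjusted p = 8.92e-05). The control went from 226.0 to 132.1, just above these. NUP188 fell by 0.83 (adjusted p = 0.00335, or 0.0571 without course 2 and 0.0529 without course 3) and NUP205 by 0.69 (adjusted p = 3.51e-06).

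Of the 6 genes of the outer ring, the Y complex that coats the membrane at the pore, 4 fell. NUP85 read 1206.6, 1319.4 and 1159.6 at 0 h and 461.6, 498.0 and 547.3 at 96 h, far apart, with 928.8 in the control at 96 h and 1280.1 at its start. The change was -1.26 (SE 0.1, adjusted p = 2.4e-08), 40.9% of the 0 h mean. NUP37 read 793.3, 958.6 and 974.7 and then 401.1, 494.7 and 559.6, with no overlap and with the control at 734.8 and 721.2. Its change was -0.89 (SE 0.13, adjusted p = 1.74e-05), and it was one of the members that fell again between 48 and 96 h (-0.46, adjusted p = 0.0241). NUP107 fell by 0.82 (adjusted p = 1.36e-05) and NUP43 by 0.52 (adjusted p = 0.00964). NUP43 had an adjusted p of 0.151 without course 2, of 0.0609 without course 3 and of 0.453 for the mean of its probe sets. NUP133 and NUP160, of the same complex, had 459 ± 12.3 and 434 ± 59.1 (SD, n = 3) at 0 h and 490 ± 41.4 and 428 ± 52.2 at 96 h. Their changes were 0.09 (SE 0.13, adjusted p = 0.615) and -0.02 (SE 0.13, adjusted p = 0.924), the first of which turned to -0.03 with arrays centred on the median. Of the 3 probe sets of NUP160, 1 was called lower.

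The transmembrane NUP210 was dim and read 61.7, 40.3 and 34.7 at 0 h and 17.4, 13.1 and 12.3 at 96 h, at or below the median signal of the arrays, and the times did not overlap. It was called lower (adjusted p = 0.00313), but the size of the change is uncertain so close to background and ran from -0.48 with a pseudocount of 64 to -1.41 with a pseudocount of 4. Of its 5 probe sets 2 were called lower, and the control read 60.7 and 46.6. In the central channel NUP98 fell from 447 ± 10.9 to 281 ± 25.9 (SD, n = 3), a change of -0.64 (adjusted p = 9.71e-05). NUP62 with -0.39 and its partners NUP54 with -0.25 and NUP58 with -0.54 were not called, and were called lower with the block (adjusted p = 0.00393, 0.0203 and 0.00253). NUP62 and NUP58 were also called without course 1, NUP62 with the mean of its probe sets and NUP54 with arrays centred on the median. NUP58 read 121.3 in course 1 and 336.9 and 394.8 in the others at 0 h. On the cytoplasmic side NUP88 fell by 0.63 (adjusted p = 0.000127), from 514 ± 8.72 to 327 ± 18.2. Its partner NUP214 had 0.12, NUP42 0.04 and RANBP2, the large protein that holds RANGAP1 at the pore, -0.19, none called. RANBP2 was called lower with the block (adjusted p = 0.027) and with arrays centred on the median (0.0133). With arrays centred on the median NUP42 turned to -0.08. RANBP2 shares sequence with the RGPD genes, so its signal is uncertain.

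Both basket genes fell. NUP153, which anchors the basket on the nuclear side, read 1116.9, 1266.1 and 1179.9 at 0 h, 637.6, 612.5 and 725.5 at 48 h and 810.0, 750.2 and 795.5 at 96 h. All of these later arrays lay below the start, and those at 96 h lay above those at 48 h. The changes were -0.84 at 48 h (adjusted p = 7.9e-07) and -0.59 at 96 h (SE 0.086, adjusted p = 2.14e-05). The mean of its 3 probe sets at 96 h was not called (adjusted p = 0.397), since the dimmer ones had -0.20 and 0.24. The control read 1164.0 at 0 h and 987.3 at 96 h. NUP50, a basket partner of the importins, fell by 0.59 (adjusted p = 0.000259).

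**Figure D4:**
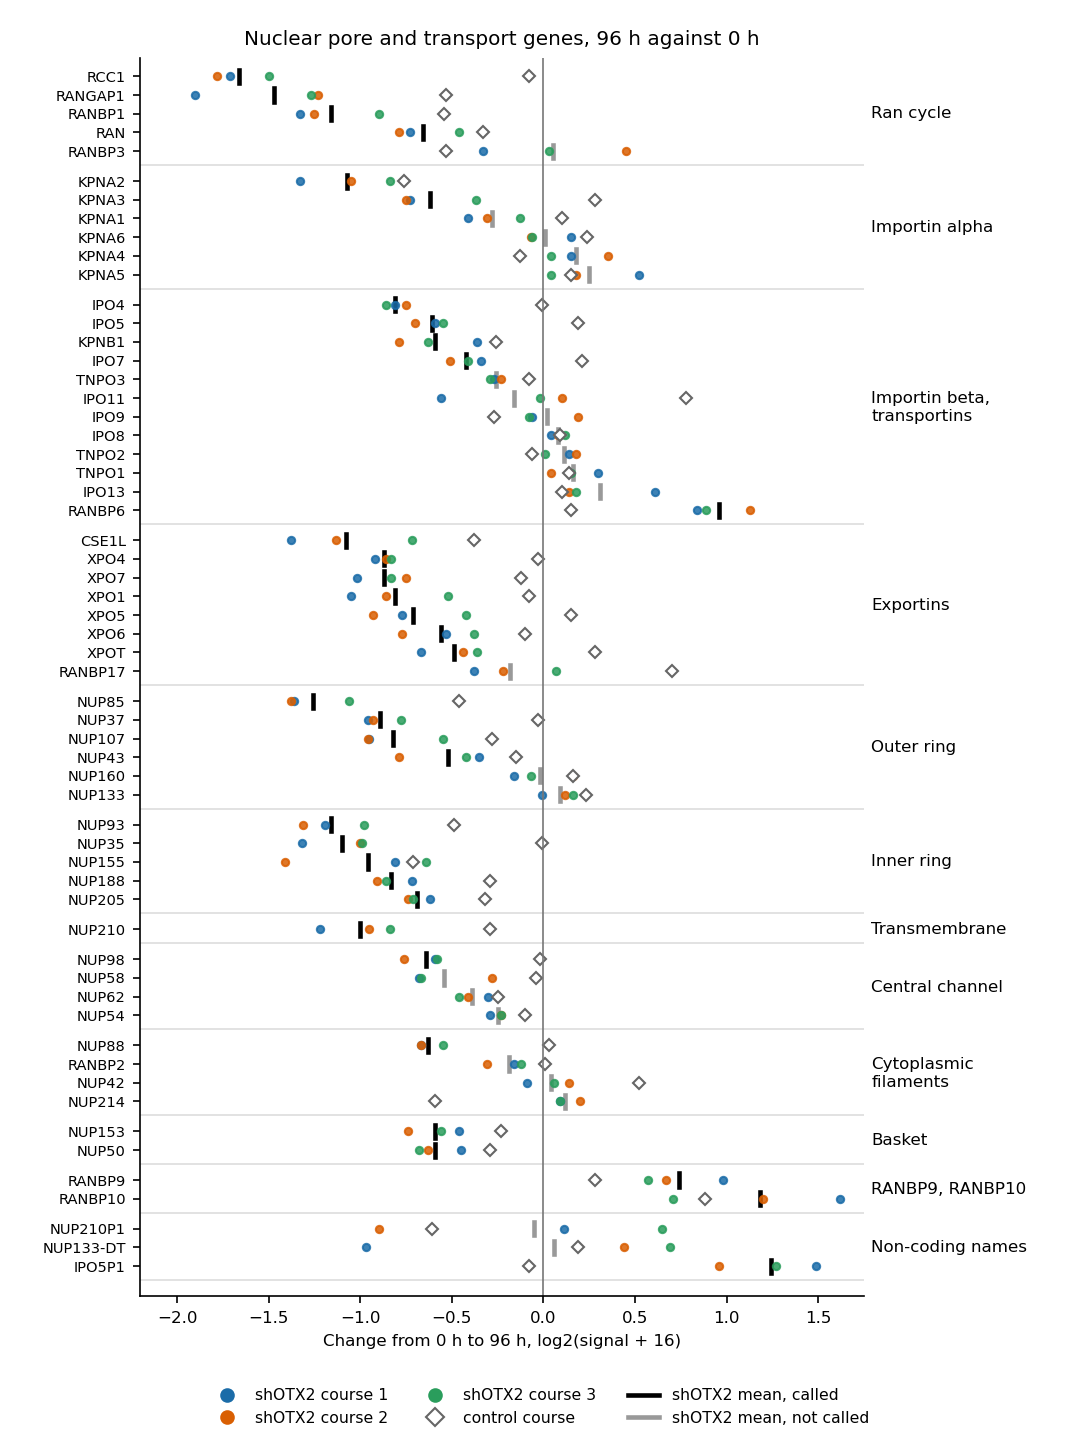
Change from 0 h to 96 h on the log2(signal + 16) scale for each of the 58 tested members, by role, with a point for each shOTX2 course, an open diamond for the control course and a bar for the shOTX2 mean (black, called; grey, not called). Most of the Ran cycle, the exportins and the inner ring are called lower, while the importins and the cytoplasmic side lie on both sides of 0.

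The 4 members that rose were RANBP6, RANBP9, RANBP10 and IPO5P1, and none is a pore component. RANBP9 and RANBP10 carry Ran-binding names but are scaffold proteins of a ubiquitin ligase. RANBP10 read 64.3, 50.3 and 66.1 at 0 h, 259.3, 149.6 and 180.9 at 48 h and 231.6, 135.8 and 118.1 at 96 h. All late arrays were above all 0 h arrays, course 1 most, and the control went from 67.4 to 138.0, inside the shOTX2 range at 96 h. The change was 1.18 (SE 0.23, adjusted p = 0.000393) and the difference between the arms 0.29 (adjusted p = 0.767). RANBP9 read 680.2, 1098.3 and 1098.3 and then 1354.4, 1756.7 and 1635.0, with no overlap and with course 1 the lowest at both times. It rose by 0.74 (SE 0.19, adjusted p = 0.00401), with all 3 probe sets called higher, and the control read 699.3 and 853.2. IPO5P1, a pseudogene of IPO5, read 60.8, 86.1 and 60.2 and then 199.2, 182.2 and 167.2, well apart, with 75.1 and 70.4 in the control. Its change was 1.24 (SE 0.13, adjusted p = 6.22e-07), and both its probe sets were called higher. Of the 5 probe sets of IPO5 itself 4 were called lower. The probe sets may not fully part a gene from its near copy, so the IPO5P1 signal is uncertain.

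The control course shows the same genes in the control cells, with 1 array per time. From 0 to 96 h the shOTX2 change was called below the control's for IPO5, KPNA3, NUP37, NUP85, RANBP1, XPO4, XPO5, XPO7 and XPOT. It was called above the control's for IPO5P1, which made 9 and 1 of 58 beside 7.43% and 6.28% of all genes. With the course as a block the change was lower in the shOTX2 arm for 23 members and higher for 4, beside 14.6% and 11.4% of all genes. That fit added lower changes of CSE1L, XPO1, XPO6, RANBP17, IPO4, IPO7, RCC1, RANGAP1, NUP35, NUP88, NUP93, NUP98, NUP107 and NUP188 and higher changes of RANBP6, RANBP9 and NUP214. NUP35 had an adjusted p of 0.173, or 0.000352 with the block, CSE1L of 0.0648, or 0.00509, and RANGAP1 of 0.456, or 0.0117. Without course 1 the count was 16 and 2, beside 19% of all genes called either way. Without course 2 it was 3 in all, beside 6.28%, and without course 3 it was 7 in all, beside 9.77%. These fits with a course left out did not use the block, and without it the count rests on which courses enter. XPO7 differed by -0.75 (SE 0.18, adjusted p = 0.00844), IPO5 by -0.80 (adjusted p = 0.00254), XPO5 by -0.85 (adjusted p = 0.0333), XPOT by -0.77 (adjusted p = 0.0333) and NUP37 by -0.86 (adjusted p = 0.0316). In the control the 5 genes had changes of -0.12, 0.19, 0.15, 0.28 and -0.03, in the same order. RCC1 had the lowest value of the members, -1.59, but the spread of its courses gave an adjusted p of 0.425, or 1.53e-05 with the block.

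The later and earlier times can be pooled, 48 and 96 h against 0 and 8 h, which uses 4 control arrays, still 1 at each time. On this measure the change was lower in the shOTX2 arm for 21 members and higher for 2, RANBP6 and IPO5P1, beside 12% and 10.5% of all genes. Those with the lower change were RANBP1, KPNA1, KPNA2, KPNA3, IPO5, CSE1L, XPO1, XPO4, XPO5, XPO7, RANBP17 and 10 nucleoporins, among them NUP85 (-1.05, adjusted p = 6.2e-05), NUP93 (-1.05, adjusted p = 0.000914) and NUP153 (-0.69, adjusted p = 0.000487). The block called 33 and 5, beside 18.6% and 16.5% of all genes. Without course 1 the counts were 32 and 5, beside 29.2% of all genes called either way, and without course 2 they were 11 and 2, beside 13.7%. RAN was not called (-0.24, adjusted p = 0.148, or 0.0467 with the block), nor was XPOT (-0.45, adjusted p = 0.0594, or 0.00123 with the block). From 0 to 96 h alone NUP85 was called too, but NUP93 (-0.67, adjusted p = 0.13) and NUP153 (-0.35, adjusted p = 0.209) were not. The control array at 48 h read the highest of all 24 arrays for KPNA2 (5525.1), NUP153 (1342.6), XPO4 (424.2) and XPO7 (946.9). For RANBP6 it read the lowest (122.0), and the other called members had no such extreme there.

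**Figure D5:**
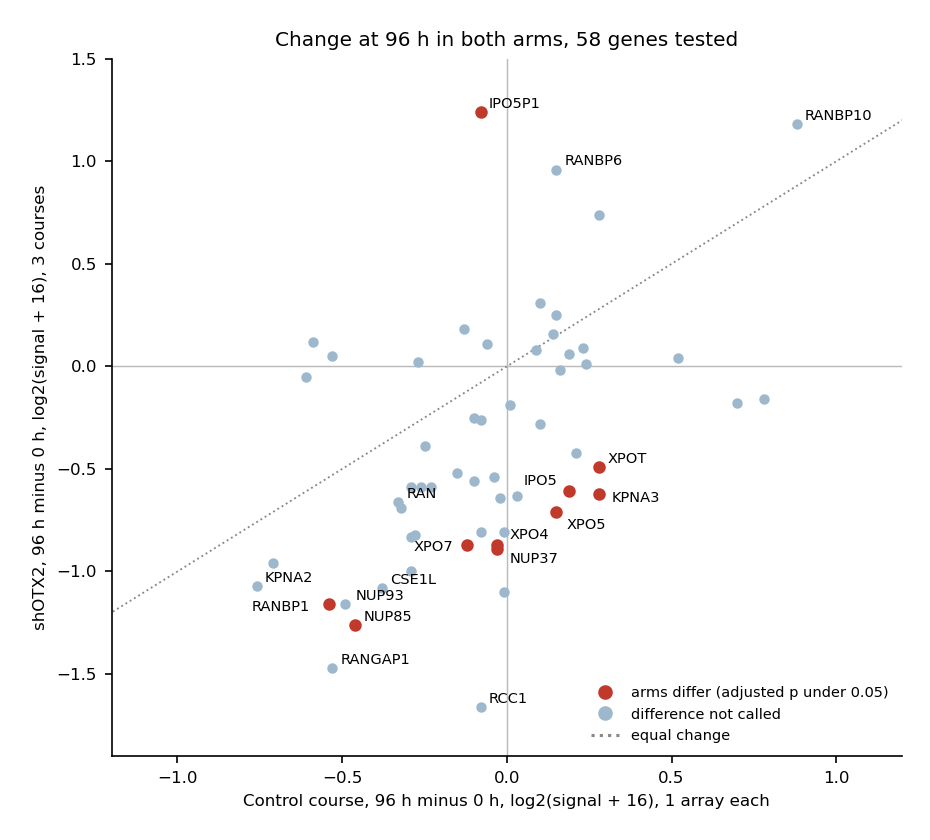
Change from 0 h to 96 h on the log2(signal + 16) scale in the shOTX2 arm (mean of 3 courses, vertical) against the control course (1 array per time, horizontal) for the 58 tested members, with a dotted line of equal change. Dark points mark the 10 members whose changes differed between the arms, and KPNA2, RANBP10 and RAN lie nearer the line than RCC1 or XPO4.

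At 96 h 36 of 58 members were below their start in the control and 41 in the shOTX2 arm, 30 of them in both, and 45 of 58 were lower in the shOTX2 arm than in the control relative to 0 h. Over all 13903 genes these counts were 6747, 6953, 4045 and 7068. Of 48 other pathway genes that the names do not cover, 41 were tested, 21 fell and 4 rose, with a median of -0.40. In the pore 7 of 10 fell, and NDC1, a transmembrane anchor, fell by 1.47 (adjusted p = 2.23e-06). POM121, a transmembrane nucleoporin, was called higher (0.64, adjusted p = 0.0469), but was dim, with 4.1, 18.5 and 37.6 at 0 h and 38.6, 34.5 and 35.3 at 96 h. The times overlapped, course 3 did not rise, and course 1 started near 0. In mRNA export 8 of 15 fell and 2 rose, with NXT1, the partner of the main mRNA exporter, at -1.26 (adjusted p = 5.62e-07). In the lamina under the envelope 5 of 10 fell, LMNB2 by 1.37 (adjusted p = 0.00109), while SUN1, which spans the inner membrane, rose by 0.94 (adjusted p = 1.28e-07). In the export of small RNA and ribosomes and the import of snRNP 1 of 5 fell. The 1 tested SUMO gene was not called, and NUTF2, the importer of RAN, was not tested.

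Proliferation genes fell as well, and in the control they fell more than the transport genes did. All 20 genes of a reference list of replication and mitosis genes fell at 96 h, with a median of -2.10. The control had a median of -0.97 over the same genes, against -0.07 over the members. MYC, a factor that binds the E-box, fell by 0.71 (adjusted p = 4.97e-05), while the control went from 5804.0 to 6766.6. The part of these changes in the transport genes was not tested.

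Probe sets of a gene did not always agree. Of the 157 probe sets, 59 were called lower and 15 higher at 96 h, beside 16.8% and 20% of all probe sets. Of the 45 genes with more than 1 tested probe set, 14 had values of both signs, namely IPO9, KPNA1, KPNA4, KPNA6, NUP153, NUP214, NUP43, NUP54, NUP58, RANBP2, RANBP3, TNPO3, XPO1 and XPO7. No gene had probe sets called both ways.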

How the data were processed

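The study used Affymetrix U133 Plus 2.0 microarrays, 1 for each of its 24 RNA samples of D425 cells, and all 24 were analysed. The authors deposited MAS5 signals, an intensity that is not log-transformed. MAS5 and GCOS are named in the submitters' processing notes, and their versions are not given in the sources used here. With 2% of probe sets trimmed at each end, the mean of the deposited intensity was 100.0113 to 100.0137 in each sample, so signals had been scaled to 1 target and a change common to most genes cannot be seen. Arrays have no read depth, and their number limits the precision.

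Gene symbols came from the platform annotation and were updated by Entrez ID where possible (41043 of 41097 with 1 symbol). The 5 probe sets with several symbols of which 1 is a transport gene were left out of the members. The filter on dim signal asked for 3 or more arrays above that array's own median, and of the probe sets that passed, the brightest on average stood for its gene. Signals were transformed as log2(signal + 16), which understates the change of dim genes. Apart from the fit on the mean of a gene's probe sets, changes were taken within a probe set. Levels of different probe sets were used together to pick the brightest, in the marker sums and in the actin ratio.

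Tests used limma 3.58.1 in R 4.3.3 (lmFit on 12 groups, eBayes with trend, 12 residual degrees of freedom) over 13903 genes. Calls were made under 0.05 after Benjamini-Hochberg adjustment. The comparison of 96 h with 0 h was also run on simulated data with independent noise and no effect of the course. That run does not check the comparisons of the arms or the effect of the pairing. With 1 array in every control group, its spread was taken to equal that of the shOTX2 groups. Each shOTX2 time was compared with 0 h, 96 h with 48 h, and the changes of the arms with each other. The labels call the courses independent. After the group means were subtracted, arrays of 1 course correlated across genes in each of 45 pairs (r 0.157 to 0.556, median 0.243), so the course pairs the arrays. A fit with the course as a block (10 residual degrees of freedom) is given where it changes the 96 h call of a member, and in other comparisons as counts and for some members.

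Members and lists (roles in the pore and transport, other pathway genes, a proliferation reference, cell type markers and promoter motifs) were chosen with earlier results of these data known, and 1 marker list is not reported here. Signals of every array are given for up to 10 lowest and 6 highest members called at 96 h with 1 sign in all courses, up to 3 each way at 16, 24 and 48 h and 5 each way between the arms, and for the importin alphas, RAN, RCC1, RANGAP1, RANBP1, KPNB1, XPO1 and CSE1L. Other members are named by role, and of the other pathway genes up to 3 each way. Promoter windows and names are from RefSeq (GRCh38.p14). Alternatives were the pseudocount (4 and 64), no filter, median centring, quantile normalization and the mean of the kept probe sets. Others were the block, only the groups compared, eBayes without trend, and each course left out. The fits with a course left out did not use the block.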

Additional observations from a re-analysis of the deposited data

Results flagged for a closer look

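The changes of 10 members from 0 to 96 h differed between the shOTX2 arm and the control by limma's test of the difference. IPO5 differed by -0.80, KPNA3 by -0.90, NUP37 by -0.86, NUP85 by -0.81 and RANBP1 by -0.62. The exportins XPO4, XPO5, XPO7 and XPOT differed by -0.84, -0.85, -0.75 and -0.77, and IPO5P1 by 1.31. Each rests on 1 control array at each time.

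The changes from 0 and 8 h to 48 and 96 h differed between the arms for 23 members. Of the nucleoporins, NUP35 differed by -1.10, NUP85 by -1.05, NUP93 by -1.05, NUP210 by -1.04, NUP37 by -0.75, NUP153 by -0.69, NUP107 by -0.66, NUP98 by -0.58, NUP50 by -0.57 and NUP205 by -0.53. Of the exportins, XPO7 differed by -0.92, XPO4 and RANBP17 each by -0.84, XPO5 by -0.79, CSE1L by -0.78 and XPO1 by -0.68. KPNA2 differed by -0.75, KPNA1 by -0.65, KPNA3 by -0.64, IPO5 by -0.38 and RANBP1 by -0.72. RANBP6 differed by 0.86 and IPO5P1 by 0.90 in the other direction. RANBP17 was not called at 96 h in the shOTX2 arm alone, where its change was -0.18, and in the control it read 44.0 at 0 h and 81.3 at 96 h.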

How the results depend on the processing

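The number of members called at 96 h stayed within 1.5 times of 35 under all 12 alternatives (28 to 42), beside 29.9% to 53.8% of all genes. So did that at 48 h except with a course left out. Without 1 course the number was 19 to 37 at 48 h, 0 to 2 at 24 h and 0 to 6 from 48 to 96 h. It was 3 to 18 for the arms at 96 h and 13 to 37 for the arms late against early. The shares of all genes called in these fits were 19.2% to 35%, 0.583% to 5.62%, 0.806% to 10.7%, 6.28% to 19% and 13.7% to 29.2%, in the same order. With the time course as a replicate block 2 members were called at 16 h, 8 at 24 h, 13 from 48 to 96 h, 27 for the arms at 96 h and 38 for late against early. The shares of all genes were 5.7%, 15.3%, 24.3%, 26% and 35%. In place of 3 at 24 h, 1 was called with no filter, with median centring, with the mean of the kept probe sets and without the trend, and 0 with only the groups compared. Over all genes the shares were 3.54%, 5.48%, 5.73%, 5.52% and 2.59%, in the same order. From 48 to 96 h 2 were called with only the groups compared and 3 without the trend, beside 8.55% and 10.4% of all genes. For the arms at 96 h 2 were called with only the groups compared, beside 8.22%. The cause was not tested. KPNA6 at 96 h turned to -0.11 with median centring and -0.02 with quantile normalization, and lay between -0.06 and 0.05 with a course left out. KPNA5 in the arms lay between -0.04 and 0.20 with a course left out. Over 26 named genes and 12 alternatives the 96 h result kept its direction and its side of the threshold in 300 cases, lost the call in 6, gained it in 3 and turned in 3. For the arms it was kept in 271, lost in 21, gained in 19 and turned in 1. Besides the results named in the text the block changed no other call at 96 h among these genes. Dim members such as NUP210, NUP210P1, NUP133-DT and IPO11 are limited by background, and 1 control array per time limits each comparison of the arms.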

Other observations

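IPO11, an importin of ubiquitin-conjugating enzymes, was dim on its only probe set of 1 symbol, but probe sets that the annotation shares with its read-through neighbour LRRC70 were brighter. They were looked at after the values were seen and were not tested. The first read 196.4, 184.0 and 176.9 at 0 h and 77.9, 77.5 and 100.1 at 96 h in courses 1, 2 and 3, with every late array below every early one. The control read 146.0 and 103.7. The second read 257.2, 150.4 and 254.4 and then 103.8, 90.5 and 138.8, again without overlap, with 235.0 and 184.0 in the control. The third, shared with LRRC70 alone, stayed between 1.5 and 14.3 on all arrays. A probe set shared by RANBP2 and 7 RGPD genes read between 8.7 and 50.1.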
